A study of Rattus norvegicus with 8 samples.

Results

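Genes that sense oxygen or answer to hypoxia-inducible factor (HIF) were followed in perfused rat liver swollen by a dilute buffer. The set holds 10 genes, listed by symbol with earlier results of these data known: Hif1a, Egln1, Egln3, Vegfa, Adm, Ndrg1, Ankrd37, Mxi1, P4ha1 and P4ha2. All 10 were measured, of 14511 named genes on the arrays. Livers of male Wistar rats aged 6 to 10 weeks were perfused with Krebs-Henseleit buffer, a salt solution held at its pH by bicarbonate. In 4 samples the buffer was normoosmotic (305 mosm/L) and in 4 it was hypoosmotic (225 mosm/L), a condition in which liver cells take up water. All 8 arrays are from the 180 min time point, and livers of the normoosmotic group had been perfused with buffer before sampling as well. The oxygen pressure of the buffer and whether it carried red cells were not given in the sources used here, and no unperfused liver was analysed here. Nothing in the labels ties replicates to separate rats, and the spread behind every p-value may therefore be technical.

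HIF is a pair of proteins, an oxygen-sensitive alpha subunit such as the one encoded by Hif1a and the stable partner ARNT. With oxygen present, prolyl hydroxylases (Egln1 encodes PHD2, Egln3 encodes PHD3) mark the alpha subunit for binding by VHL and for destruction. When oxygen is short the alpha subunit persists and the pair binds short sites, the hypoxia response elements, near genes of glycolysis, vessel growth and matrix formation. Control is mainly at the protein, which expression arrays do not measure, while Egln1, Egln3, Vegfa, Adm, Ndrg1, Ankrd37, Mxi1, P4ha1 and P4ha2 are known as transcripts that HIF can raise. In liver, oxygen falls along the sinusoid from the portal side to the central vein, and perfusion replaces the blood with buffer.

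The core letters of a hypoxia response element are ACGTG or GCGTG, and promoters of members were searched for them on both strands. The windows come from RefSeq (build GRCr8), each of 300 bases with 250 before and 50 after an annotated start. Of the members, 9 matched the table by symbol, with 10 windows. The letters stood in a window of 6 members (Hif1a, Egln1, Ankrd37, Mxi1, P4ha1 and P4ha2) and in no window of Egln3, Vegfa or Adm. Among all 33465 windows of this length 41.6% held them. The windows of 4 members are printed 5′ to 3′ on the strand of the gene, with the matched letters in capitals. Mxi1 is shown as the member that passed the test, P4ha1 and P4ha2 as the pair with the largest negative changes, and Ankrd37 because its window held 5 matches. On both strands together 5 matches or more stood in 1.52% of all windows. A match describes letters and is no proof of a site, and the absence of letters in a window tells nothing of the factor.
Mxi1, chr1:262348392-262348691, + strand: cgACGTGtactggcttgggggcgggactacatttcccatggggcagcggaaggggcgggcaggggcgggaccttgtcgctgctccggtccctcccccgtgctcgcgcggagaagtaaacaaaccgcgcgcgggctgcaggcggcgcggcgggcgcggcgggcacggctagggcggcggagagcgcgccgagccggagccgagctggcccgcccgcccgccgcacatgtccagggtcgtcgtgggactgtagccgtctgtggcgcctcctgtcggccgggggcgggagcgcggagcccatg
Ankrd37, chr16:53001257-53001556, + strand: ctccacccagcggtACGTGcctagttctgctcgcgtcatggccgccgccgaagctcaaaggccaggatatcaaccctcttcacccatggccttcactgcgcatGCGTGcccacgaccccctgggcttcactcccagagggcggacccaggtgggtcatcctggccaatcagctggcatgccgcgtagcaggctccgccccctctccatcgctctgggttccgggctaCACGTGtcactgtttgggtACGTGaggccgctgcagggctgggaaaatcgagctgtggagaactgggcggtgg
P4ha1, chr20:27844796-27845095, + strand: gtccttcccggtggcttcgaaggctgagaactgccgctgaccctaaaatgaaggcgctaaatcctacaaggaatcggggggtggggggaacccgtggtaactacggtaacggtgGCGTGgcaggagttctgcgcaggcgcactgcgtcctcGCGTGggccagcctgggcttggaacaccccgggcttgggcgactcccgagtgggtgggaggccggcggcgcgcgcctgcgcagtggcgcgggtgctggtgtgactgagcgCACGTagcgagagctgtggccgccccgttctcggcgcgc
P4ha2, chr10:38743644-38743943, + strand: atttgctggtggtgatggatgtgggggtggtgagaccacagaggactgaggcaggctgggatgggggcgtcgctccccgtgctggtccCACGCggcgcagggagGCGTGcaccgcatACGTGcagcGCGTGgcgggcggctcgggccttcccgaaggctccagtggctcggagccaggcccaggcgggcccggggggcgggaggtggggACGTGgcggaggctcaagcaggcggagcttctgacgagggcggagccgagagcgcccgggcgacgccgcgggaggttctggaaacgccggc

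In the Mxi1 window the only match was ACGTG with its first base at position -248 from the start. P4ha2 also held 5 matches, 4 on the strand of the gene, and P4ha1 held 3. In Ankrd37 and in Hif1a (3 matches, window not printed) a run reading CACGTG counts on both strands, since those letters are their own complement.

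Between hypoosmotic and normoosmotic livers, 1 of the 10 members rose and 0 fell (limma, Benjamini-Hochberg adjusted p under 0.05). Over all genes tested 7.07% passed in either direction, 2.45% as higher and 4.62% as lower, so 1 of 10 is near the background. These shares stand for 356 genes higher and 670 lower, and median centring of the arrays turned them into 235 and 733, with the same 1 member among them. The mean was higher in hypoosmotic livers for 6 members and lower for 4. The median change of the members was 0.12 on the log2 scale, against 0.015 over all genes. The groups of 4 did not overlap for 3 members (Hif1a, Mxi1 and P4ha2), a separation found in 13.5% of all genes. At an unadjusted p under 0.05 stood 4 members, against 20.7% of all genes. Levels are log2 intensities as deposited, and a change is the hypoosmotic minus the normoosmotic mean with its limma standard error (SE).

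**Figure D1:**
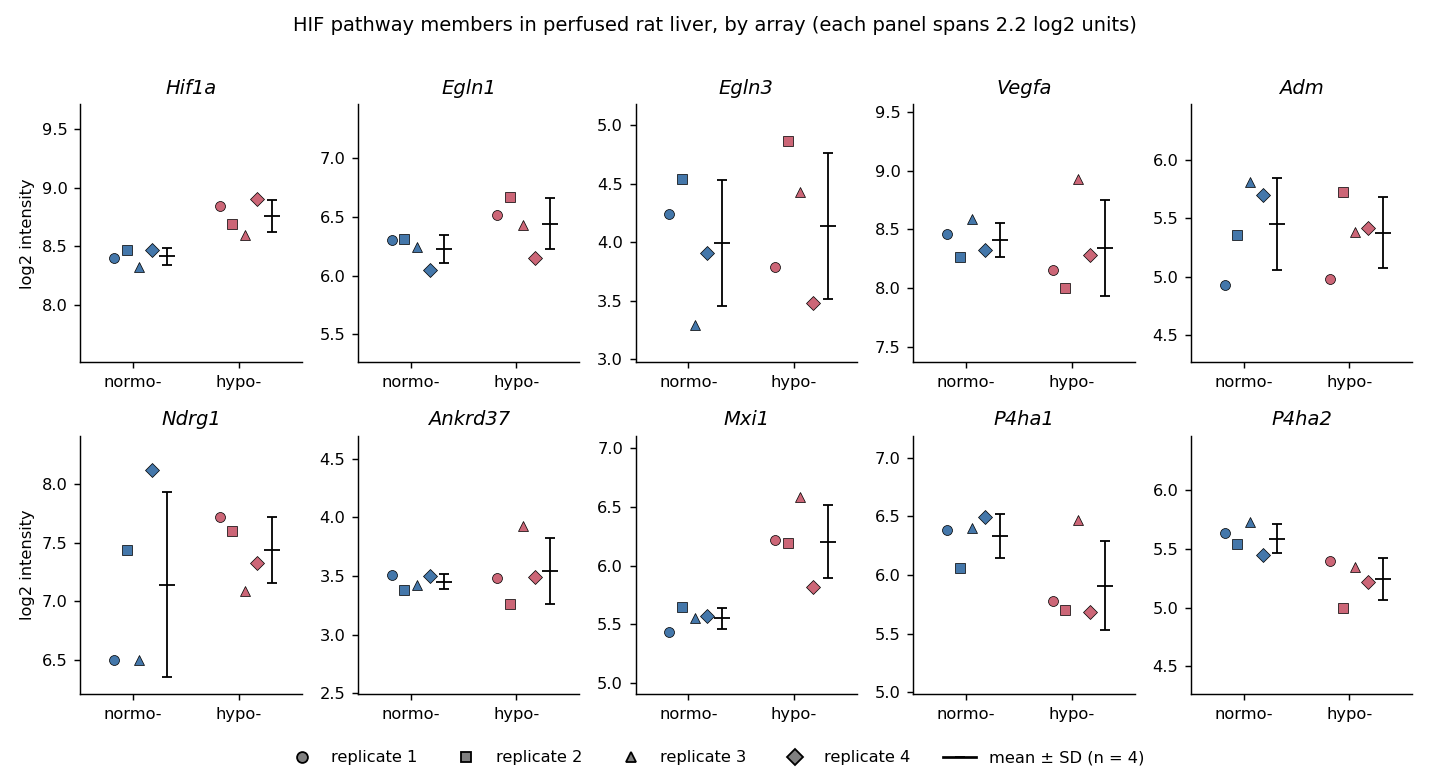
Log2 intensity (vertical axis) of the 10 members in each normoosmotic and hypoosmotic array, with the mean and SD of 4 arrays at the side; symbols give the replicate number, and each panel spans the same height. Mxi1 and Hif1a lie higher in all hypoosmotic arrays and P4ha2 lower, while Ndrg1 and Egln3 spread widely within the groups.

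Mxi1 encodes a partner of MAX that opposes MYC at shared DNA sites, and it is a known HIF target. Its log2 intensity was 5.43, 5.65, 5.55 and 5.57 in normoosmotic replicates 1 to 4, and 6.22, 6.19, 6.58 and 5.82 in hypoosmotic replicates 1 to 4. The hypoosmotic values all lay above the normoosmotic ones, with replicate 3 the highest and replicate 4 the lowest of its group. The group means were 5.55 ± 0.091 and 6.20 ± 0.31 (SD, n = 4 each), and the change was 0.65 ± 0.15 SE, or 1.57-fold (limma adjusted p = 0.0243). In whole liver, more or fewer cells of a type and more or less RNA per cell cannot be told apart. The same holds for the results that follow.

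The call for Mxi1 changed with the choice of probe set and in most fits without 1 array. Its 3 probe sets gave changes of 0.65 (the one used, with the highest mean), 0.47 and 0.43. Tested among all probe sets, they had adjusted p-values of 0.0342, 0.143 and 0.178 (limma). With the 3 averaged the change was 0.52 and the adjusted p 0.0668. In the probe set with the lowest mean, hypoosmotic replicate 4 and normoosmotic replicate 4 both read 5.45, so its groups met. With 1 array left out Mxi1 passed in 3 of 8 fits (adjusted p 0.00982 to 0.0666). It did not pass without normoosmotic replicate 1 (0.0666), 3 (0.0656) or 4 (0.0597), nor without hypoosmotic replicate 1 (0.0569) or 2 (0.0606). Its change stayed between 0.53 and 0.78 in the 8 fits. Over all genes 1026 passed with all arrays, and 468 to 690 in the fits where Mxi1 did not pass.

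**Figure D2:**
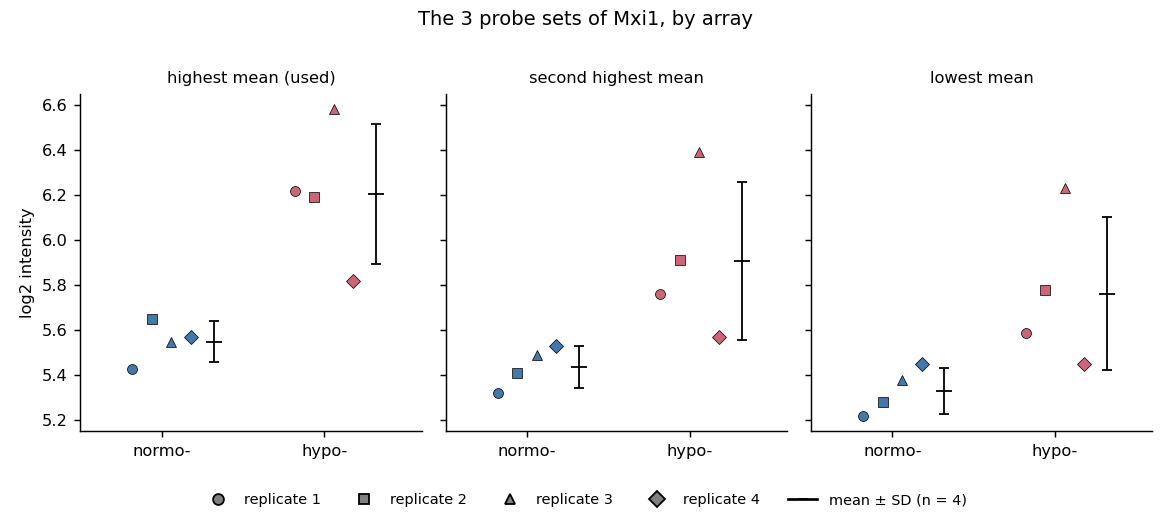
Log2 intensity (vertical axis) of the 3 probe sets annotated to Mxi1 in each array, ordered by mean level, with mean and SD of 4 arrays; symbols give the replicate number. The hypoosmotic means are higher in each, by 0.65, 0.47 and 0.43, and hypoosmotic replicate 3 is highest in all 3.

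Hif1a, the oxygen-regulated alpha subunit itself, was measured with narrow spread. Its log2 intensity was 8.40, 8.47, 8.32 and 8.47 in the normoosmotic arrays and 8.84, 8.69, 8.60 and 8.90 in the hypoosmotic arrays. Each hypoosmotic array stood above each normoosmotic one. The means were 8.42 ± 0.071 and 8.76 ± 0.14 (SD, n = 4 each). The change was 0.34 ± 0.10 SE, or 1.27-fold, with a 95% interval of 0.12 to 0.57 and an adjusted p of 0.0736 (limma), so it did not pass over all genes. With array weights it did (0.0440). In the 8 fits without 1 array its adjusted p ran from 0.0517, without hypoosmotic replicate 3, to 0.191, without normoosmotic replicate 3, and the change from 0.30 to 0.40. Only 12.6% of all genes had a smaller SD within groups than Hif1a.

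The hydroxylases that sense oxygen did not pass. Egln1, which encodes PHD2, the main hydroxylase for HIF in most tissues, read 6.30, 6.31, 6.24 and 6.05 in normoosmotic and 6.52, 6.67, 6.43 and 6.15 in hypoosmotic arrays. Of the hypoosmotic arrays 3 lay above all normoosmotic ones and replicate 4 lay among them. Its change was 0.22 ± 0.13 SE, with an interval of -0.059 to 0.49 (limma adjusted p = 0.381). A second Egln1 probe set, dimmer on average, gave 0.28 ± 0.15 SE. Egln3, which encodes PHD3, read 4.24, 4.54, 3.29 and 3.91 against 3.79, 4.86, 4.43 and 3.48. The groups overlapped, with normoosmotic replicate 3 the lowest and hypoosmotic replicate 2 the highest of all 8, each group spanning more than a log2 unit (1.25 and 1.38). That lowest value of 3.29 lay under 3.37, a level taken further on as near background, while both Egln3 group means lay above it. The Egln3 change of 0.15 ± 0.31 SE had an interval from -0.55 to 0.84 (limma adjusted p = 0.869), and in 98.7% of all genes the SD within groups was smaller.

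The secreted members showed no shift beyond their spread. Vegfa, the growth factor of vessel endothelium, read 8.46, 8.26, 8.59 and 8.32 in normoosmotic and 8.15, 8.0, 8.93 and 8.28 in hypoosmotic arrays. Hypoosmotic replicate 3 was the highest of all 8 and replicate 2 the lowest. The change of Vegfa was -0.068 ± 0.18 SE (interval -0.47 to 0.33, limma adjusted p = 0.893). Without hypoosmotic replicate 3 it was -0.26 with an adjusted p of 0.255. Adm, the precursor of the vasodilator peptide adrenomedullin, read 4.93, 5.36, 5.81 and 5.70 against 4.98, 5.72, 5.38 and 5.42. Replicate 1 was the lowest in both groups, and every hypoosmotic value lay within the normoosmotic range. Its change was -0.075 ± 0.20 SE (interval -0.52 to 0.37, limma adjusted p = 0.894).

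Ndrg1 and Ankrd37 are transcripts widely used as readouts of hypoxia. Ndrg1, which encodes a stress-responsive cytoplasmic protein, read 6.50, 7.44, 6.50 and 8.12 in normoosmotic arrays and 7.72, 7.60, 7.09 and 7.33 in hypoosmotic arrays. The normoosmotic arrays alone spanned 1.62 log2 units and enclosed all hypoosmotic values. For Ndrg1 the change was 0.30 ± 0.32 SE with an interval of -0.41 to 1.00 (limma adjusted p = 0.696), and 98.8% of all genes had a smaller SD within groups. Leaving out normoosmotic replicate 4, the highest array, moved the change to 0.62 (adjusted p = 0.202), and leaving out normoosmotic replicate 3 moved it to 0.082 (0.946). Ankrd37, an ankyrin repeat protein, read 3.51, 3.38, 3.42 and 3.50 against 3.48, 3.26, 3.93 and 3.49. Apart from hypoosmotic replicate 3 these are close to 3.37, the 95th percentile of the mean levels of 53 odorant receptor genes, taken here as near background. In every array Ankrd37 lay above 3.07, the level that 1105 odorant receptor genes of both symbol styles give. Its change was 0.088 ± 0.14 SE (limma adjusted p = 0.804), and this near to background its size may not be exact.

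**Figure D3:**
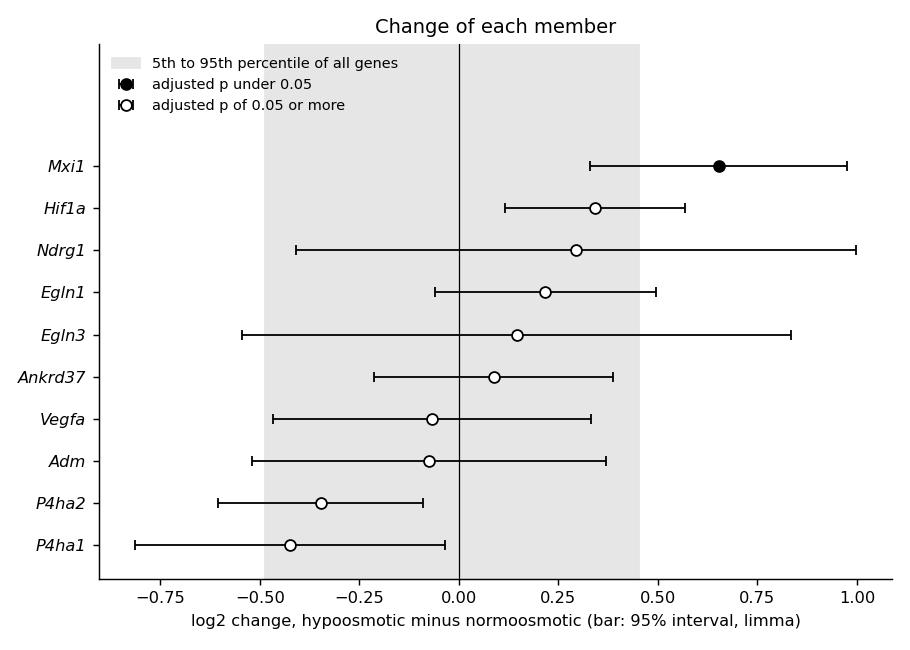
Log2 change, hypoosmotic minus normoosmotic (horizontal axis), of each member with its 95% interval from limma; the filled point passed at an adjusted p under 0.05 and the grey band spans the 5th to 95th percentile of all genes (-0.49 to 0.45). Only Mxi1 lies outside the band, and the intervals of Ndrg1 and Egln3 are the widest.

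The collagen prolyl hydroxylase genes both had lower means in hypoosmotic livers, and neither passed. P4ha1 and P4ha2 encode alternative catalytic alpha subunits of the enzyme that hydroxylates collagen prolines and so lets the triple helix hold. P4ha2 read 5.64, 5.54, 5.73 and 5.45 in normoosmotic arrays and 5.40, 5.0, 5.35 and 5.22 in hypoosmotic arrays, with no overlap. Its change was -0.35 ± 0.12 SE, 1.27-fold lower, with an interval of -0.60 to -0.090 (limma adjusted p = 0.107). P4ha1 read 6.38, 6.06, 6.40 and 6.49 against 5.78, 5.70, 6.47 and 5.68. Of the hypoosmotic arrays 3 lay below every normoosmotic one, and replicate 3 lay among the highest. The P4ha1 change was -0.42 ± 0.18 SE with an interval of -0.81 to -0.035 (limma adjusted p = 0.195). Without hypoosmotic replicate 3 it was -0.61 and passed (adjusted p = 0.0192), which makes 1 member higher and 1 lower, when 6.31% of all genes passed.

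**Figure D4:**
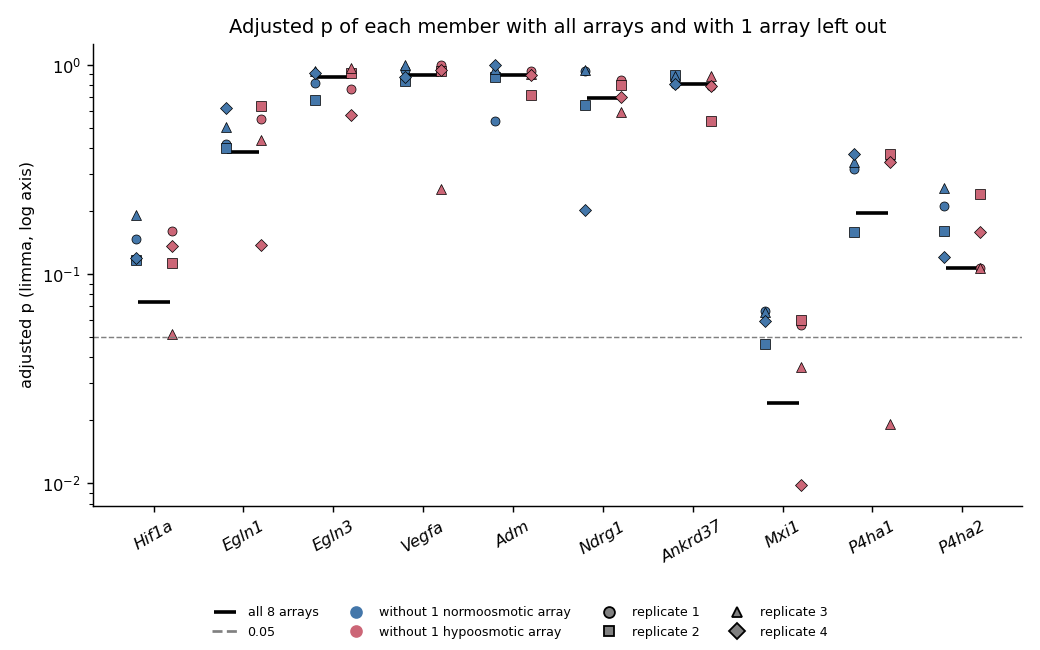
Adjusted p from limma (vertical axis, log scale) of each member with all 8 arrays (bar) and with each array left out (blue, a normoosmotic array; red, a hypoosmotic array; symbol, its replicate number). Mxi1 passes 0.05 with all arrays and in 3 of 8 fits, and P4ha1 only without hypoosmotic replicate 3.

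Hypoosmotic replicate 3 stood apart from the other arrays of its group. Over all genes it lay at 28.5 on the second principal component, which held 18.9% of the variance, and the other arrays between -15.3 and 6.60. It was the highest of its group for 4 members, Vegfa, Ankrd37, Mxi1 and P4ha1, and the lowest for 2. The median deviation of the members from their group mean was 0.20 there, where that of all genes was 0. Marker lists of sinusoidal endothelium, stellate cells, hepatocytes, leukocytes other than Kupffer cells and both liver zones also had their highest hypoosmotic mean level on this array. The lists of Kupffer cells, cholangiocytes and erythroid cells did not. The leukocyte list, at 2.82 there, lay below the level of 3.37 taken as near background. The hepatocyte level of 12.01 was below the highest normoosmotic one of 12.08. For stellate cells, which make collagen, the mean log2 level over 10 markers was 6.69 there and 6.28 to 6.35 in the normoosmotic arrays, the hypoosmotic range being 6.11 to 6.69, and 0 of the 10 passed. The part of cell makeup in the P4ha1 and Vegfa values of this array was not tested.

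Other genes of the pathway were taken from 8 lists holding 123 measured genes outside the members. Of these, 6 rose and 9 fell, or 12.2%, against 7.07% over all genes. The lists were put together from general knowledge of the pathway, with earlier results of these data known. Nothing is read from their shares beyond these counts.

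Among the subunits and regulators of HIF, 1 of 20 fell and 0 rose, where 7.07% of all genes passed. The list median was -0.20. At an unadjusted p under 0.05 (limma) stood 8 of the 20, against 20.7% of all genes. The groups did not overlap for 8, against 13.5% of all genes. The fall was that of Crebbp, which encodes CBP, a coactivator that HIF recruits. It read 7.67, 7.98, 8.08 and 8.04 in normoosmotic and 7.47, 7.26, 7.46 and 7.42 in hypoosmotic arrays. The Crebbp change was -0.54 ± 0.12 SE (limma adjusted p = 0.0199), and it passed in 4 of 8 fits without 1 array (0.0171 to 0.0661, highest without normoosmotic replicate 3). Its relative Ep300 had a change of -0.43 ± 0.14 SE (0.0870), and Hsp90aa1, a chaperone that holds the alpha subunit, one of -0.39 ± 0.11 SE (0.0577). Hsp90aa1 did pass with robust variances and an intensity trend together (0.0483), with array weights (0.0457), after median centring (0.0325), without the dimmest 30% of genes (0.0477) and without hypoosmotic replicate 3 (0.0458). Without that array 3 of the 20 passed.

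Of 46 other measured HIF targets, 2 rose and 5 fell, where 7.07% of all genes passed. The list median was 0.048. The rises were those of Car12, a membrane carbonic anhydrase, and Slc2a1, the glucose transporter GLUT1. Car12 read 2.71, 3.38, 3.85 and 3.20 against 4.56, 4.26, 4.28 and 4.32, a change of 1.07 ± 0.20 SE (limma adjusted p = 0.0117). Its normoosmotic mean of 3.29 was below the level of 3.37 taken as near background, and above the 3.07 that 1105 odorant receptor genes of both symbol styles give, so its size may not be exact. Slc2a1 read 6.77, 7.01, 7.48 and 7.54 against 7.72, 7.69, 8.19 and 8.07, with a change of 0.72 ± 0.19 SE (0.0419). The groups of both genes were apart, a separation found in 13.5% of all genes. Slc2a1 passed in 1 of 8 fits without 1 array (0.0426 to 0.107, highest without normoosmotic replicate 2). It was also at 0.0515 with array weights, 0.0506 after a further quantile normalization, 0.0508 after median centring and 0.0579 with all probe sets tested. It passed with the replicate number as a block (0.0141) and with robust variances and an intensity trend together (0.0369). Without the dimmest 30% of genes (0.0361) and with probe sets averaged (0.0424) it passed too.

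The falls among these targets were led by Wsb1, a substrate adaptor of a ubiquitin ligase, and Jmjd6, an oxygenase acting on lysine. Wsb1 read 9.08, 9.10, 9.14 and 9.55 against 8.14, 7.98, 7.95 and 8.73, a change of -1.02 ± 0.18 SE, 2.02-fold lower (limma adjusted p = 0.00924). Jmjd6 fell by 0.94 ± 0.18 SE, 1.92-fold lower (0.0117). Wsb1, Jmjd6 and Car12 passed in all 8 fits without 1 array. Kdm3a, a histone demethylase that itself needs oxygen, had a change of -0.45 ± 0.10 SE (0.0254), Bnip3l, a mitophagy receptor, of -0.50 ± 0.13 SE (0.0370) and Gbe1, the glycogen branching enzyme, of -0.41 ± 0.11 SE (0.0402). These passed in fewer of the 8 fits, Kdm3a in 3 (0.0257 to 0.0751, highest without normoosmotic replicate 3), Bnip3l in 2 (0.0245 to 0.0959, highest without normoosmotic replicate 1) and Gbe1 in 1 (0.0481 to 0.123, highest without normoosmotic replicate 3). Over the whole list of 46, the passes came to 3 without normoosmotic replicate 1 or 3 or hypoosmotic replicate 2, and 4 without hypoosmotic replicate 1 or 3. Passes over all genes were also fewer there, at 626, 468, 545, 690 and 915 in the same order, against 1026 with all arrays.

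Of 12 glycolytic enzymes under HIF control 2 rose and 0 fell, where 7.07% of all genes passed. The list median was 0.13. Pgm1, phosphoglucomutase, which links glycogen to glycolysis, read 7.37, 7.51, 7.24 and 7.12 against 8.08, 8.11, 8.21 and 7.73, a change of 0.72 ± 0.13 SE (limma adjusted p = 0.0104). Ldha, the A subunit of lactate dehydrogenase, read 11.81, 11.78, 11.23 and 11.09 against 12.18, 12.10, 12.01 and 12.05, a change of 0.61 ± 0.16 SE (0.0486). Both were higher in every hypoosmotic array, and groups were apart in 13.5% of all genes. Pgm1 passed in all 8 fits without 1 array and Ldha in 2 (0.0391 to 0.139, highest without normoosmotic replicate 3). After median centring Ldha did not pass (0.0726). Eno1, enolase 1, had a change of 0.29 ± 0.094 SE (0.0938).

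Genes around Vegfa and Adm were counted in the same way. Of 13 other genes of vessel growth signalling 1 rose and 1 fell, where 7.07% of all genes passed. The list median was 0.15. Vegfc, the ligand best known for lymphatic vessels, read 6.06, 6.12, 6.09 and 6.22 against 5.51, 5.68, 5.61 and 5.73, a change of -0.49 ± 0.096 SE (limma adjusted p = 0.0137), and passed in all 8 fits without 1 array. Kdr, the main VEGF receptor of endothelium, rose from 6.87 ± 0.25 to 7.53 ± 0.24 (SD, n = 4 each, limma adjusted p = 0.0280), and passed in 2 of 8 (0.0254 to 0.0654, highest without normoosmotic replicate 1). Kdr is also an endothelial marker. The endothelial markers, 7 of 10 measured and Kdr among them, had a median change of 0.33, with mean levels of 6.76 to 7.02 in normoosmotic and 6.91 to 7.36 in hypoosmotic arrays, and of them Kdr rose and Oit3 fell. The part of endothelial content in the Kdr result was not tested. Vegfb had a change of -0.23 ± 0.12 SE (0.323). Of 7 genes of the adrenomedullin system 0 passed. At an unadjusted p under 0.05 (limma), where 20.7% of all genes lay, stood 1 gene. This was Ramp2, which makes the receptor CALCRL respond to adrenomedullin, at 0.44 ± 0.15 SE (adjusted p = 0.118), and Ramp1 and Ramp3 had changes of 0.30 ± 0.15 SE (0.301) and -0.17 ± 0.12 SE (0.516). Both group means of Ramp3 and the normoosmotic mean of Ramp2 lay below 3.37, so these sizes may not be exact. Against the other level of 3.07, the Ramp3 means were below and that of Ramp2, 3.24, was above.

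Of 9 measured genes of the MAX network, to which Mxi1 belongs, 1 rose and 2 fell, where 7.07% of all genes passed. Mxd1, a MYC antagonist of the same protein family as Mxi1, read 6.79, 7.26, 6.75 and 6.86 in normoosmotic and 8.19, 8.82, 7.69 and 7.95 in hypoosmotic arrays. Its change of 1.25 ± 0.22 SE, or 2.37-fold (limma adjusted p = 0.00857), was the largest of the 123 pathway genes, and it passed in all 8 fits without 1 array. Max, the shared partner of MYC and its antagonists, read 8.31, 8.69, 8.56 and 8.50 against 7.91, 8.14, 7.52 and 8.08, a change of -0.60 ± 0.15 SE (0.0324). Myc read 9.06, 9.43, 9.72 and 9.30 against 8.64, 8.64, 8.43 and 8.96, a change of -0.71 ± 0.16 SE (0.0220). For Mxd1, Max and Myc the groups did not overlap, a separation found in 13.5% of all genes. Max and Myc each passed in 4 of 8 fits without 1 array (Max 0.0355 to 0.0873, Myc 0.0165 to 0.0604, both highest without normoosmotic replicate 3). With its probe sets averaged Max did not pass (0.0682). The count of the list was 1 without hypoosmotic replicate 1, normoosmotic replicate 2 or normoosmotic replicate 3. Over all genes 690, 675 and 468 passed in these fits, against 1026 with all arrays.

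**Figure D5:**
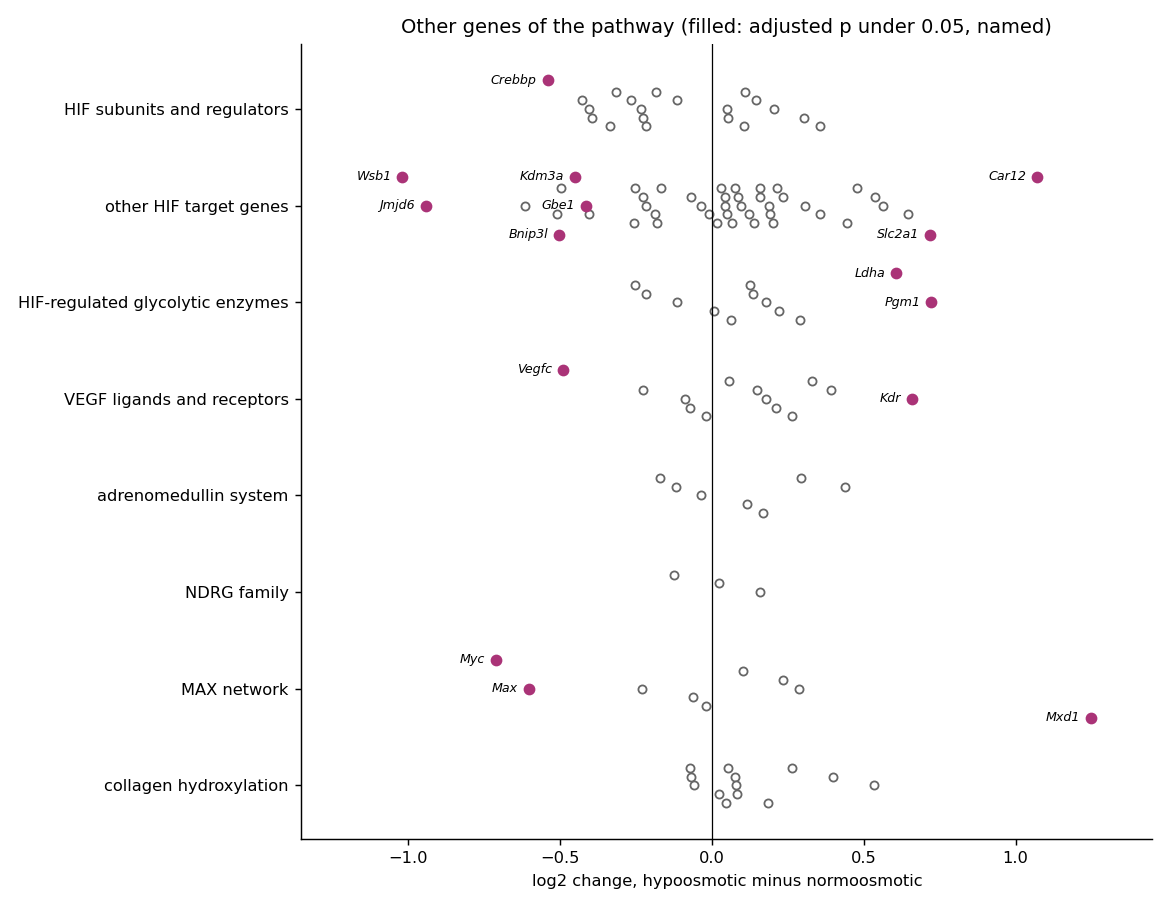
Log2 change, hypoosmotic minus normoosmotic (horizontal axis), of each measured gene in the 8 pathway lists; filled points with names passed at an adjusted p under 0.05 (limma), open points did not. Passed genes stand on both sides of 0 among the other HIF targets, the VEGF genes and the MAX network.

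The relatives of Ndrg1 and of the collagen hydroxylases did not pass. For Ndrg2, Ndrg3 and Ndrg4 the changes were 0.16 ± 0.094, -0.13 ± 0.20 and 0.025 ± 0.11 SE, with adjusted p-values of 0.402, 0.814 and 0.937 (limma), and 0 of the 3 had an unadjusted p under 0.05. The Ndrg3 means of 3.35 and 3.22 lay below 3.37, taken as near background, and above the other level of 3.07. Of 13 other genes of collagen modification 0 passed. Under 0.05 before adjustment (limma) stood 2 of them, against 20.7% of all genes. Ppib, cyclophilin B, came nearest, at 0.40 ± 0.13 SE (adjusted p = 0.0861), which passed without hypoosmotic replicate 4 (0.0349) and after a further quantile normalization (0.0484). Serpinh1, the collagen chaperone HSP47, had a change of 0.54 ± 0.21 SE (0.162), and the lysyl hydroxylase gene Plod2 one of 0.26 ± 0.12 SE (0.243). The Plod2 normoosmotic mean of 3.13 was below 3.37, taken as near background, and above the other level of 3.07. The median change of the list was 0.078.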

How the data were processed

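RNA of 8 rat liver samples was measured on Affymetrix arrays, and groups and replicate numbers come from the sample titles. The authors deposited log2 values for 27596 probe sets with 2 decimals. RMA, Transcriptome Analysis Console 4.0 and Affymetrix Expression Console are the tools listed, per the submitters' processing notes. RMA equalises the distributions of arrays, which takes out any shift common to most transcripts. Array medians lay between 3.92 and 4.05. The sources used here do not name the probe design, masking or genome build.

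Names came from the platform's annotation of 2016 with a table of rat genes, and 15316 had 1 symbol, 317 several and 11963 none here. The probe set with the highest mean represented each of 14511 genes. The comparison used limma 3.58.1 under R 4.3.3 (lmFit, eBayes, group only, both tails) with Benjamini-Hochberg adjustment over all genes and a threshold of 0.05. The fit was tested on simulated data. Tables and plots were made with Python 3.11.15, pandas 2.3.3 and matplotlib 3.10.9.

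The members and lists were chosen with earlier results of these data known. From each list every gene that passed was named, filled up to 3 by the smallest p. The array number, 4 per group, limits the precision. Alternatives were the replicate number as a block, robust variances with an intensity trend, weighting of arrays, a further quantile normalization, median centring, leaving out the dimmest 30% of genes, averaged probe sets, all probe sets tested, limma's treat with 1.2 as the lowest fold change, and 8 fits that each lack 1 array. Another set of odorant receptor genes was added after seeing the data.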

Additional observations from a re-analysis of the deposited data

Results flagged for a closer look

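In hypoosmotic replicate 3, P4ha1 read 6.47 while the other hypoosmotic arrays lay between 5.68 and 5.78. Its gap to the nearest of them took 0.873 of the range of the group, above Dixon's 95% critical value for 4 samples. In normoosmotic replicate 4, Wsb1 read 9.55 and the other normoosmotic arrays lay between 9.08 and 9.14, a gap of 0.872 of the range. The direction of both differences was the same without these arrays, P4ha1 then being lower by an amount that passed and Wsb1 still passing. In all, 76 groups of 4 values were looked at for the members and the named pathway genes, and 2 stood out. By chance about 1 in 20 groups would.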

How the results depend on the processing

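With 4 arrays a group, single arrays and settings near the threshold moved several counts. The number of members higher was 2 with array weights, 0 with probe sets averaged and 0 against a minimum fold change of 1.2. Against that minimum (limma treat) 0 genes of each list passed. Among HIF subunits and regulators 2 passed with an intensity trend and robust variances together, with array weights, without the dimmest 30%, after median centring and after a further quantile normalization. Of the glycolytic enzymes 1 passed after median centring and 1 with all probe sets tested, where 4 of the other HIF targets passed. For collagen modification it was 1 after a further quantile normalization. Leaving out each array gave 0 to 1 members higher, 0 to 1 lower, 0 to 3 regulators, 3 to 8 other targets, 1 to 2 glycolytic enzymes, 1 to 2 VEGF genes, 1 to 3 MAX network genes and 0 to 1 collagen modification genes. For the adrenomedullin system and the NDRG family the count was 0 in each of these fits. Over all genes the fits without 1 array gave 468 to 1051 passes, fewest without normoosmotic replicate 3, against 1026 with all arrays. The cause of these differences was not tested, though fewer arrays also mean less power.

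Among the members and the genes named from each list by rule, the sign turned only for Egln3, Vegfa, Adm, Ankrd37 and Ndrg4. With all arrays their changes were 0.15, -0.068, -0.075, 0.088 and 0.025, in this order. Without 1 array, Egln3 ran from -0.095 to 0.36, Vegfa from -0.26 to 0.046, Adm from -0.25 to 0.057 and Ankrd37 from -0.042 to 0.18. Ndrg4 was at -0.0001 with array weights, -0.0014 after a further quantile normalization and -0.015 after median centring, and without 1 array it ran from -0.025 to 0.068. The level taken as near background was 3.07 with 1105 odorant receptor genes of both symbol styles.

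Same-numbered arrays of both groups had deviations correlated at 0.0061 to 0.257. For normoosmotic replicates 2, 3 and 4 the best-matching hypoosmotic array had the same number, and for replicate 1 it was replicate 3. It was not settled whether the numbers mark pairs, and the main fit used the group only. With the replicate block Mxi1 passed (limma adjusted p = 0.0332), and 5 of the other HIF targets passed instead of 7. Kdm3a (0.0521), Bnip3l (0.0687) and Gbe1 (0.0597) no longer passed, and Ak4 did (0.0497), named after its value was seen. The block changed no other call of the members and pathway lists.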

Other observations

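Liver lobules are zoned along the oxygen gradient, and markers of both zones were counted. Of 9 measured pericentral genes 1 rose, the ammonium transporter gene Rhbg, and 0 fell, with a list median of 0.092. Of 10 periportal genes 1 rose, the arginase gene Arg1, and 0 fell, with a median of 0.26. Mean log2 levels of the pericentral list were 7.20 to 7.69 in normoosmotic and 7.34 to 7.78 in hypoosmotic arrays, and of the periportal list 7.66 to 7.86 and 7.78 to 8.36. The labelled tissue had strong hepatocyte markers, with mean levels of 11.8 to 12.1 over 8 genes in all arrays, of which 0 passed.

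Other cell types gave the following values. Of 10 Kupffer cell markers 0 passed (median change 0.18), of 5 cholangiocyte markers 0 (0.025) and of 9 markers of other leukocytes 0 (0.060), the last list lying at mean levels of 2.66 to 2.82, below the level taken as near background. Of 4 erythroid markers 1 rose, the alpha globin chaperone gene Ahsp, and the mean level of this list was 3.38 to 4.28 in normoosmotic and 3.79 to 4.0 in hypoosmotic arrays.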
